A study of Mus musculus with 2 samples.

Results

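The neural crest transcription factors described here are 10 genes, Sox10, Sox9, Tfap2a, Tfap2b, Snai1, Twist1, Ets1, Prrx1, Prrx2 and Alx1. They were taken by symbol, and each stood on 1 of the 27998 gene lines of both libraries. The samples were eye organoids, small cultured tissues that form optic vesicles, grown from mouse embryonic stem cells of the Rax-GFP line. All cells carried the same genotype, a heterozygous knock-in of green fluorescent protein at Rax, and the groups were culture day 6 and culture day 4. With 1 library for each, day and library cannot be told apart. The cells came from 1 stem cell line. Each day was 1 single-cell library into which 3 biological experiments had been pooled, and no replicate could be told apart.

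Neural crest cells arise at the border of the neural plate, lose their epithelial contacts and migrate away to form sensory neurons, glia, pigment cells and, in the head, skeleton and connective tissue, including the mesenchyme around the eye. The 10 factors act at successive points of that path. Tfap2a and Tfap2b, AP-2 family factors, act from the border onward. Snai1, a repressor of E-cadherin, and Ets1, a factor of cranial crest, take part in the exit from the epithelium. Sox9 and Sox10 are SOXE factors, and Sox10 is kept in glial and pigment lineages. Twist1, Prrx1, Prrx2 and Alx1 are factors of the cranial mesenchyme.

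The day 6 library held 6641 cells after filtering with 87800738 unique molecular identifiers (UMIs, counts of captured RNA molecules), and the day 4 library 8147 cells with 98643495 UMIs. Median depth was 12514 UMIs per cell on day 6 and 11216 on day 4. The cells are labelled retina progenitors, yet markers of the optic vesicle named only 1 day 6 cluster, of 2722 cells (41.0%). That size depends on the clustering, with 55.3% of the cells at 30 neighbours, 15.6% at resolution 0.4 and no cluster of that name at resolution 1.0. Between the libraries 91 cell barcodes were shared, of which 78 passed the filter in both, and 1 of these was a cell with 3 or more of the 10 factors on day 6. Levels are given as CPM, UMIs scaled to a group total of 1e+06, and intervals are 95% and cover counting error only. A ratio is called higher or lower by size when it differed 1.5-fold or more and its interval did not include 1. With 1 library per day this describes the libraries and is no test.

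The genes lie on 8 chromosomes of mm10 and are annotated as protein-coding. Sox10 spans chr15:79154908-79165240, Sox9 chr11:112782224-112787760 and Tfap2a chr13:40715302-40738376. Tfap2b (chr1:19208914-19238576) and Prrx1 (chr1:163245119-163313710) share chromosome 1, and Snai1 (chr2:167538195-167542814) and Prrx2 (chr2:30834972-30881251) share chromosome 2, in each pair far apart. Twist1 spans chr12:33957671-33959829, Ets1 chr9:32636221-32757820 and Alx1 chr10:102998707-103030215.

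RefSeq promoter windows (build GRCm38.p6, 250 bases before to 50 after the start) were matched for 6 of the 10 genes, namely Tfap2a, Tfap2b, Snai1, Twist1, Prrx1 and Prrx2. Those of Tfap2b, Twist1 and Prrx1, which were found mostly in 1 group of day 6 cells, are shown here beside that of Prrx2, the paralog of Prrx1 that was found mostly elsewhere. Capitals mark matches on either strand to the letters bound by families of these factors, the E-box CANNTG, the AP-2 letters GCCNNNGGC, the SOX letters AACAAT, the ETS letters CCGGAA and the homeodomain letters TAATTA. The windows are Tfap2b chr1:19211804-19212103 on the plus strand, Twist1 chr12:33957421-33957720 on the plus strand, Prrx1 chr1:163313601-163313900 on the minus strand and Prrx2 chr2:30845117-30845416 on the plus strand.
Tfap2b: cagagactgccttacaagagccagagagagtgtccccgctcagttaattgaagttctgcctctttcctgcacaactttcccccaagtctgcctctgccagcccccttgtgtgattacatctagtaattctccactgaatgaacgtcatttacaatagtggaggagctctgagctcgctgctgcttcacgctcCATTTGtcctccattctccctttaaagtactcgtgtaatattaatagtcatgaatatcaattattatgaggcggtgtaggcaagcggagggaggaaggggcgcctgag
Twist1: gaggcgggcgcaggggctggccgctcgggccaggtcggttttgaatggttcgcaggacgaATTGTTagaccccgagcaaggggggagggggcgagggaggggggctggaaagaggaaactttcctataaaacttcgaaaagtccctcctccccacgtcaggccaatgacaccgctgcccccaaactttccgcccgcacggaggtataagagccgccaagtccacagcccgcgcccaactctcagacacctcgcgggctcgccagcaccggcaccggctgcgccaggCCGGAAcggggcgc
Prrx1: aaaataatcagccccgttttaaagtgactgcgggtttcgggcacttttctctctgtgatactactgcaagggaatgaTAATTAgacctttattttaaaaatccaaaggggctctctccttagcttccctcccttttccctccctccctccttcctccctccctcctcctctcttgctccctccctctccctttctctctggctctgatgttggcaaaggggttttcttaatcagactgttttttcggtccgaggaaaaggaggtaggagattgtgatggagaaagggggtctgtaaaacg
Prrx2: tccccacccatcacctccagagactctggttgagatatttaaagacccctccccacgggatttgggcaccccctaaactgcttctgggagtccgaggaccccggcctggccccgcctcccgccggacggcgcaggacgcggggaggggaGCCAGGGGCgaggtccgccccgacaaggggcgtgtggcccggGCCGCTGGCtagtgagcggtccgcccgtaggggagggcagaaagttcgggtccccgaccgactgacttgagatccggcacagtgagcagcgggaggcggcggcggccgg
Counted from the start, Tfap2b held an E-box at -58, Twist1 the SOX letters at -190 and the ETS letters at 37, Prrx1 the homeodomain letters at -173, and Prrx2 the AP-2 letters at -101 and -59. No marked stretch overlapped another. Of the 32851 windows in the table, 72.3% held an E-box, 16.6% the AP-2 letters, 14.9% the ETS letters, 10.7% the SOX letters and 5.29% the homeodomain letters. The G and C content was 70.3% for Prrx2 and 66.0% for Twist1 but 48.3% for Tfap2b and 47.7% for Prrx1, against a median of 52.7% over all windows. The windows of the paralogs Prrx1 and Prrx2 held different marked matches. A match is a stretch of letters and not a shown binding site.

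Most of these factors were more abundant in the day 6 library than in the day 4 library, and the difference was largest for Tfap2b and Sox10. Higher by size were 7 of the 10 genes, within the limits 3 and lower 0, where 19.7% of 15580 genes tested were higher and 14.6% lower. The median log2 ratio of all genes was 0.12.

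Tfap2b was at 4.35 CPM (382 UMIs) on day 6, compared with 0.101 CPM (10 UMIs) on day 4, with a day 6 over day 4 ratio of 42.9 with an interval of 23.1 to 90.2. Sox10 was at 1.26 CPM (111 UMIs) on day 6, compared with 0.0912 CPM (9 UMIs) on day 4, with a day 6 over day 4 ratio of 13.9 (7.04 to 31.1). Both genes were therefore close to the limit of detection on day 4. The mesenchyme factors followed. Prrx1 was at 3.86 CPM on day 6, compared with 0.476 CPM on day 4 (ratio 8.10, 5.96 to 11.2), and Alx1 was at 4.26 CPM on day 6, compared with 0.649 CPM on day 4 (ratio 6.57, 5.03 to 8.70). Prrx2 was at 7.81 CPM on day 6, compared with 2.42 CPM on day 4, and Twist1 at 2.73 CPM on day 6, compared with 0.902 CPM on day 4. Their ratios, 3.22 for Prrx2 and 3.03 for Twist1, were smaller, with 239 Prrx2 and 89 Twist1 UMIs already present on day 4.

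Ets1, which also serves endothelial and blood cells, was at 4.02 CPM on day 6, compared with 1.68 CPM on day 4, with a day 6 over day 4 ratio of 2.39 (1.98 to 2.89). The 3 genes that stayed within the limits were Sox9, Tfap2a and Snai1. Sox9 had the highest level of the 10 in both libraries, 11.9 CPM on day 6, compared with 9.03 CPM on day 4 (ratio 1.31, 1.20 to 1.44). Tfap2a was at 1.18 CPM on day 6, compared with 0.973 CPM on day 4 (ratio 1.22, 0.913 to 1.62). Snai1 was at 2.03 CPM on day 6, compared with 2.06 CPM on day 4 (ratio 0.985, 0.801 to 1.21). Levels are of 3′ end counts, and these genes were sparse in every library.

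**Figure D1:**
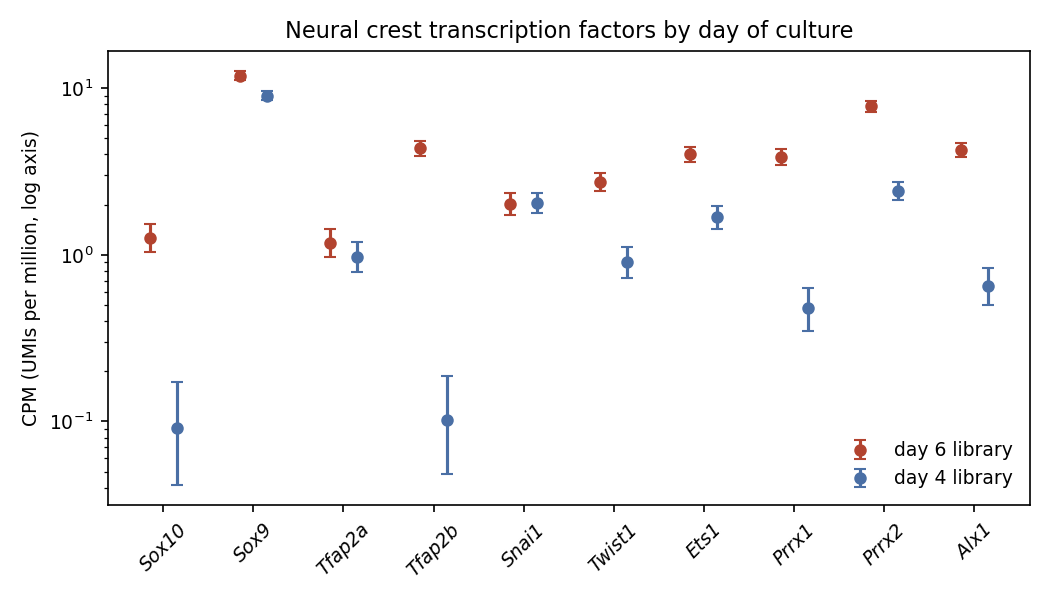
Level of each of the 10 genes in the day 6 library (red) and the day 4 library (blue), in CPM on a log axis, with 1 point per library and exact Poisson 95% intervals as bars. The points lie farthest apart for Tfap2b (4.35 CPM on day 6, compared with 0.101 CPM on day 4) and Sox10 (1.26 CPM on day 6, compared with 0.0912 CPM on day 4), and close together for Snai1 (2.03 CPM on day 6, compared with 2.06 CPM on day 4).

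The share of cells with at least 1 UMI gave the same order of days as the levels. Sox9 was found in 12.6% of day 6 cells, against 9.32% of day 4 cells, and Prrx2 in 8.58% of day 6 cells, against 2.86% of day 4 cells. All other factors were found in under 4% of the cells of either day. Sox10 was found in 70 day 6 cells (1.05%) and 9 day 4 cells (0.110%), and Tfap2b in 161 day 6 cells (2.42%) and 6 day 4 cells (0.0736%). When each cell was thinned to 5000 UMIs, Sox10 was found in 0.497% of day 6 cells, against 0.0502% of day 4 cells, and Tfap2b in 1.20% of day 6 cells, against 0.0377% of day 4 cells. On day 4 most cells with a factor held 1 UMI of it. Of the day 4 cells with Sox9, the gene with most UMIs, 104 of 759 had more than 1, and of the 6 with Tfap2b 1 had 5 UMIs. Of the day 4 cells with Twist1, 2 of 87 had more than 1 UMI, against 50 of 127 on day 6, and of those with Alx1, 2 of 62 had more than 1, against 73 of 217 on day 6. On day 6 single cells reached 10 UMIs of Tfap2b, 10 of Twist1 and 9 of Alx1.

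A small group of day 6 cells held several of the factors at once, and day 4 had few such cells. Of the day 6 cells, 4830 had a UMI of none of the 10 genes, 1437 of 1, 212 of 2 and 162 of 3 or more, up to 9 in 3 cells. The 162 cells made up 2.44% of day 6 (2.08 to 2.84%), against 14 cells or 0.172% of day 4 (0.0940 to 0.288%). With no upper limit on UMIs or genes per cell the shares were 2.50% on day 6 and 0.362% on day 4, where 33 of 9107 cells had 3 or more. After thinning to 5000 UMIs the shares were 1.11% on day 6 and 0.0251% on day 4. At 5 or more factors there were 80 day 6 cells and 0 of 8147 day 4 cells, which allows a share of up to 0.0368% (3 counts of the total). The 14 day 4 cells had a median of 19000 UMIs, above the 11216 of their library. Sox9 was found in 11 of them, Prrx2 in 9, Tfap2a in 6, Ets1 in 5, Prrx1 in 5, Twist1 in 4 and Tfap2b, Snai1 and Alx1 in 1 each. Sox10 was found in 0 of the 14, which allows a share of up to 21.4%.

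Clustering of the day 6 cells with the 10 genes held out gave 1 cluster that the other crest markers named neural crest-like. It had 171 cells (2.57% of day 6). Of the 12 crest markers that are not among the 10 factors, Erbb3, Ednrb, Cdh11, Pdgfra and Foxc1 were among those that counted toward its name. The cluster held 146 of the 162 cells with 3 or more factors (90.1%), and 85.4% of its cells had 3 or more, with a median of 4 and none without any. The other 16 such cells were spread over a large unnamed cluster (9 cells), the optic vesicle-like (4), endoderm-like (2) and pluripotent-like (1) clusters. At least 3 of the 12 other crest markers were found in 46.6% of the cells with 3 or more factors inside the cluster, in 6.25% of those outside it and in 0.263% of the day 6 cells that were neither. Cells with 3 or more factors had a median of 15642 UMIs, against 12452 in the other day 6 cells. The shares after thinning, above, are at equal depth. Day 4 was clustered at 1 setting only, into 4 clusters, and none was named neural crest-like. Its 14 cells lay in the largest day 4 cluster, and so few cells may not separate at that setting.

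**Figure D2:**
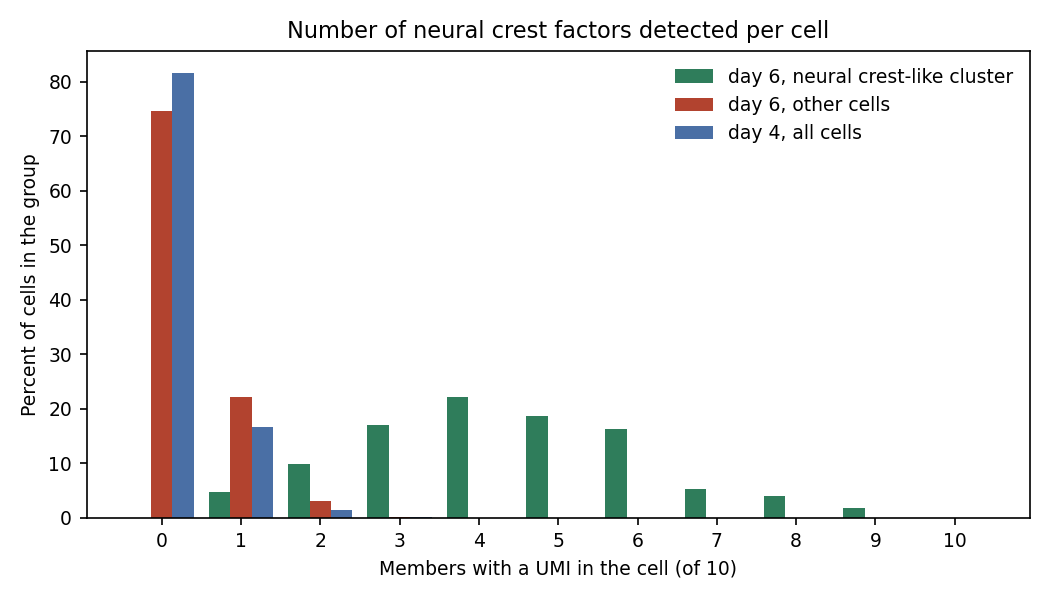
Percent of cells (vertical axis) with a UMI of 0 to 10 of the genes (horizontal axis), in the day 6 neural crest-like cluster of 171 cells (green), the other day 6 cells (red) and all day 4 cells (blue). The cluster peaks at 4 genes per cell, while most cells of both other groups have none.

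All 10 factors were higher in the neural crest-like cluster than in the other day 6 cells, but by very different amounts. The background was 6.3% of 14261 genes higher. Tfap2b led with 108 CPM in the cluster and 1.29 CPM in the other cells, followed by Alx1 with 99.8 CPM in the cluster and 1.44 CPM in the other cells. Ets1 had 239 UMIs in the cluster and 114 in all other cells (71.1-fold by CPM). Prrx1 was at 81.1 CPM in the cluster and 1.58 CPM in the other cells, and Twist1 at 77.5 CPM in the cluster and 0.528 CPM in the other cells. Sox10 was lower in level yet had the largest ratio, 39.3 CPM in the cluster and 0.141 CPM in the other cells (279.6-fold, 153 to 559). The order by level within the cluster holds only in part, since the neighbours Tfap2b, Alx1 and Ets1 had overlapping intervals.

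The other 4 genes had the smallest ratios, and Sox9 and Prrx2 had the highest levels of the 10 in the other cells. Sox9 was at 27.8 CPM in the cluster and 11.4 CPM in the other cells (2.44-fold, 1.89 to 3.12), and Prrx2 at 52.1 CPM in the cluster and 6.51 CPM in the other cells (ratio between 6.56 and 9.69). Snai1 was at 19.1 CPM in the cluster and 1.52 CPM in the other cells, and Tfap2a at 14.7 CPM in the cluster and 0.786 CPM in the other cells. The share of cells with a UMI was compared at 5000 UMIs with the optic vesicle-like cells, which should lack most crest factors, at unthinned median depths of 14764 UMIs in the neural crest-like and 12295 UMIs in the optic vesicle-like cells. Tfap2b was found in 35.7% of the neural crest-like cells and 0.0367% of the optic vesicle-like cells. Sox10 was found in 18.1% of the neural crest-like cells and 0.0367% of the optic vesicle-like cells, and Twist1 in 21.6% of the neural crest-like cells and 0.147% of the optic vesicle-like cells. Without thinning, 69.6% of the neural crest-like cells had Tfap2b, 33.9% Sox10 and 48.5% Twist1, whereas of the optic vesicle-like cells 0.184% had Tfap2b, 0.184% Sox10 and 0.257% Twist1. Prrx2 in 4.45% and Sox9 in 3.49% of the thinned optic vesicle-like cells stood well above that level. Alx1 also stood above it, in 0.992% of these cells (0.655 to 1.44%), against 38.0% of the thinned neural crest-like cells.

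Co-detection on day 6 followed the same division. Of the 70 cells with a Sox10 UMI, 54 (77.1%, 65.6 to 86.3%) had UMIs of at least 2 of the other 9 factors, where 5.51% of all day 6 cells did. The Sox10 share was 54.5% after thinning to 5000 UMIs and 44.0% when detection needed 2 UMIs. The share was 69.6% for Tfap2b, 67.7% for Twist1, 49.8% for Alx1, 49.3% for Ets1 and 44.2% for Prrx1. It was lower for Tfap2a (35.2%) and Snai1 (29.9%), and lowest for Prrx2 (13.5%) and Sox9 (7.39%). Of all day 6 cells, 3.63% had at least 2 others for Sox9 and 4.11% for Prrx2, against 5.06 to 5.51% for the rest. Prrx2 and Sox9 were mostly met alone, with none of the other 9 in 68.8% of Prrx2 cells and 76.8% of Sox9 cells, against 11.4% of Sox10 cells. On day 4, 0 of the 9 cells with Sox10 had at least 2 others, which allows a share of up to 33.3%. Among pairs, Tfap2b was found in 67.1% of Sox10 cells and 2.42% of all day 6 cells, and Ets1 in 62.9% of Sox10 cells and 3.12% of all day 6 cells. Within the neural crest-like cluster the shares lay closer. Tfap2b was found there in 77.6% of Sox10 cells (64.7 to 87.5%) and 69.6% of all cells, and Ets1 in 74.1% of Sox10 cells (61.0 to 84.7%) and 64.3% of all cells.

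Counting the other 9 genes only, so that a gene could not help to choose its own cells, left the pattern in place. Tfap2b was found in 64.3% of the 140 cells with at least 3 of the other 9 and in 1.09% of the rest, and Alx1 in 63.8% of such cells and 1.88% of the rest. Twist1 was found in 51.0% of such cells and 0.740% of the rest, and Sox10 in 29.4% of such cells and 0.385% of the rest. Sox9 showed the smallest ratio of shares, 31.5% of such cells and 12.2% of the rest. Cells of 1 library share their depth and free RNA, and these shares are a description.

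**Figure D3:**
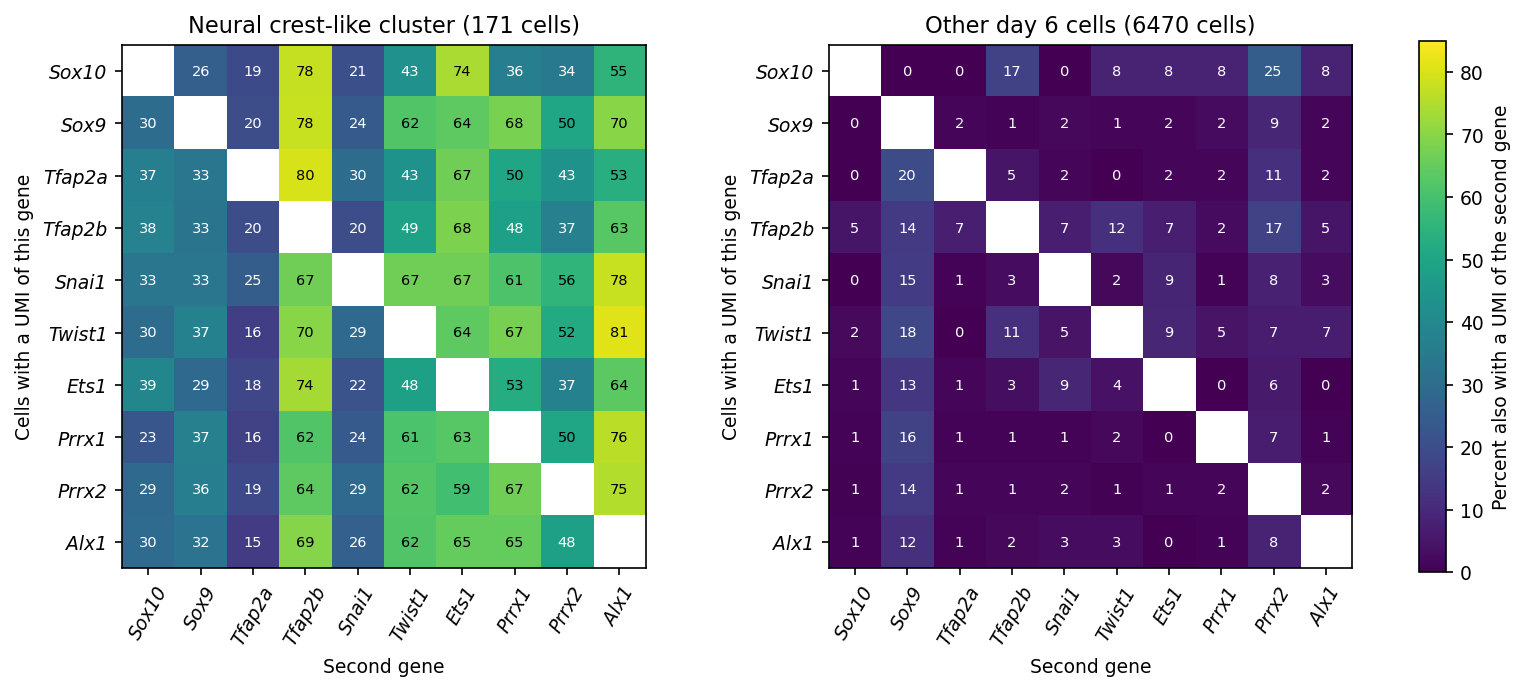
Percent of the cells with a UMI of the row gene that also had a UMI of the column gene, in the neural crest-like cluster (left, 171 cells) and the other day 6 cells (right, 6470 cells), on 1 colour scale from 0 to 85 percent. In the cluster the Tfap2b, Ets1 and Alx1 columns are bright, genes found in 69.6%, 64.3% and 63.2% of all its cells. Alx1 was in 80.7% of the Twist1 cells there. Outside the cluster only the Sox9 and Prrx2 columns rise above a few percent for most rows.

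Within the neural crest-like cluster the factors were not evenly mixed. Cells with a Sox10 UMI had less Prrx1, Prrx2 and Alx1 than cells without one, while Tfap2b, Ets1 and Tfap2a stayed within the limits. Sox10 was detected in 58 of the 171 cells, which had a median of 16040 UMIs, against 13896 in the 113 cells without it. Prrx1 was at 36.5 CPM in the cells with Sox10 and 107 CPM in those without (ratio 0.340, 0.228 to 0.494), and it was found in 36.2% of the cells with Sox10 and 62.8% of those without. Alx1 was at 68.7 CPM in the cells with Sox10 and 118 CPM in those without (ratio 0.582, 0.431 to 0.777), and Prrx2 at 34.4 CPM in the cells with Sox10 and 62.5 CPM in those without (ratio 0.550, 0.357 to 0.827). So 3 of the other 9 factors were lower by size and 0 higher, where 2.42% of 7160 genes were lower and 2.68% higher. Twist1 (ratio 0.668, 0.480 to 0.919) fell just short of the 1.5-fold limit.

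Sox10 was met as 1 UMI in 33 of the 58 cells, so depth bears on which cells counted as having it. After thinning to 5000 UMIs, 31 cells with Sox10 and 140 without remained. Alx1 then had a ratio of 0.463 (0.193 to 0.959) and Prrx1 0.493 (0.173 to 1.14), whereas the Prrx2 difference was lost (interval 0.403 to 2.20, from 8 UMIs in the cells with Sox10 and 36 in those without). The Prrx1 interval then included 1.

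Genes outside the 10 divided along the same line, in values that were not thinned to equal depth. Of the ectomesenchyme list, genes of crest-derived skeleton and connective tissue, 8 of 9 tested were lower by size in the cells with Sox10 and 1 was higher (median log2 ratio -1.91), where the median of all genes tested was 0.01. Col3a1, a fibrillar collagen, was at 24.7 CPM in the cells with Sox10 and 130.0 CPM in those without (ratio 0.190). Foxc1, a forkhead factor of periocular mesenchyme, was at 5.37 CPM in the cells with Sox10 and 27.1 CPM in those without (ratio 0.198). The matrix proteoglycan Lum had 1 UMI in the cells with Sox10, against 33 in those without (ratio 0.0515, 0.00127 to 0.308), and the homeobox gene Alx4 1 UMI in the cells with Sox10, against 25 in those without (ratio 0.0680, 0.00166 to 0.416). The 1 gene of the list that was higher, named after its value was seen, was Mef2c (123 UMIs in the cells with Sox10 and 129 in those without).

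Of the glial and melanocyte list, 5 of 6 tested were higher by size in the cells with Sox10 and 0 lower (median log2 ratio 1.16). Phactr1, a regulator of actin, had a ratio of 4.51 (2.65 to 7.96), Ednrb, the endothelin receptor of migrating crest, 2.78 (1.25 to 6.52), and Fabp7, a fatty acid carrier of glia, 2.27 (1.18 to 4.44). The border gene Pax3 (ratio 2.27, 1.54 to 3.37) and the EMT factor Zeb2 (ratio 2.04, 1.43 to 2.91) were also higher in the cells with Sox10. With Lmo4 (ratio 1.76) they were the 3 of 13 crest specifiers and border factors tested that were higher, and 0 were lower. Of 14 migration and adhesion genes Nrp2 (ratio 1.96) was higher and Cdh11 (ratio 0.587) lower, and of 6 inducing signals 0 were higher and Rspo1 (ratio 0.269) and Wnt5a (ratio 0.284) were lower. Among markers of other cell types, Tubb3 (ratio 2.20) and Etv2 (ratio 2.27) were higher in the cells with Sox10 and Pdgfra (ratio 0.292), counted as endoderm and crest marker alike, was lower. The summed level of the 10 pluripotency markers was 19.3 CPM in the cells with Sox10 and 17.0 CPM in those without, and that of the 8 optic vesicle markers 26.8 CPM in the cells with Sox10 and 36.0 CPM in those without.

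**Figure D4:**
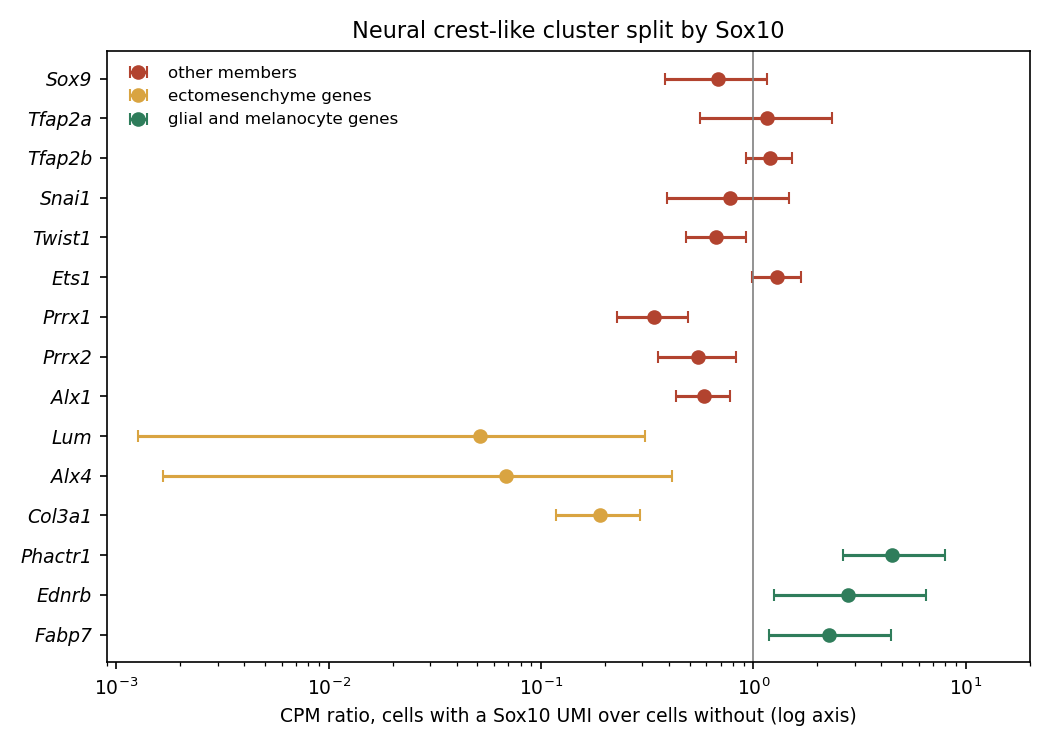
Ratio of CPM in neural crest-like cells with a Sox10 UMI (58 cells) over those without (113 cells), on a log axis, for the other 9 factors (red) and 3 genes each of the ectomesenchyme list (gold) and the glial and melanocyte list (green), with exact 95% intervals. Points left of the line at 1 are lower in the cells with Sox10, by size for Prrx1, Prrx2, Alx1, Lum, Alx4 and Col3a1. The green genes Phactr1, Ednrb and Fabp7 lie to the right.

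A large part of the factors' UMIs lay outside the cells with 3 or more of them. Over the 10 genes, 2280 of 3808 day 6 UMIs (59.9%) and 97.1% of day 4 UMIs were outside. The genes differed widely in this. On day 6 the share outside was 91.6% for Sox9, 79.7% for Prrx2, 67.4% for Snai1 and 62.5% for Tfap2a, 40.7% for Prrx1, 38.5% for Ets1, 34.0% for Tfap2b, 33.2% for Alx1, 21.6% for Sox10 and 17.5% for Twist1. Since the gene itself helps to reach 3, the cluster, which was formed without the 10 genes, was used for the levels that follow.

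The day 6 cells outside the neural crest-like cluster, set against all day 4 cells, showed which day differences did not need that cluster. Tfap2b was at 1.29 CPM in these day 6 cells and 0.101 CPM on day 4 (12.7-fold, 6.66 to 27.3), Prrx1 at 1.58 CPM in them and 0.476 CPM on day 4 (3.32-fold), Prrx2 at 6.51 CPM in them and 2.42 CPM on day 4 (2.69-fold), and Alx1 at 1.44 CPM in them and 0.649 CPM on day 4 (2.22-fold). Twist1 was lower in these cells, 0.528 CPM against 0.902 CPM on day 4 (0.585-fold, 0.399 to 0.846). The other 5, Sox10 (1.54-fold, 0.596 to 4.14), Sox9, Tfap2a, Snai1 and Ets1, stayed within the limits. Thus 4 of 10 were higher and 1 lower, where 19.5% of 15539 genes were higher and 14.5% lower. Sox10, Twist1 and Ets1 were higher on day 6 in the whole libraries, and the cluster held 99 of 111 day 6 UMIs of Sox10, 195 of 240 of Twist1 and 239 of 353 of Ets1.

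Finer clustering into 15 clusters located what lay outside. Tfap2b was most concentrated in 19 cells with markers of young neurons such as Tubb3, Elavl3 and Stmn2, where 8 cells held 52 UMIs (298 CPM), up to 10 in 1 cell. The same neuron-like cells had 8 UMIs of Tfap2a in 4 cells (45.9 CPM), and at most 2 of the 10 factors met in 1 cell. None of the 19 counted among the cells with 3 or more factors. The posterior neural tube-like cluster of 264 cells, with Wnt1 and En1, had Tfap2b at 9.06 CPM, Tfap2a at 4.53 CPM, Prrx2 at 14.9 CPM and Sox9 at 14.9 CPM. Both AP-2 genes are also known from sensory and dorsal interneurons of the embryo.

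Prrx1 outside the cluster lay mostly in 1 place, a cluster of 813 cells led by Rspo3, Wnt8b and Emx2, genes of the dorsal forebrain, with 103 UMIs or 9.52 CPM. In every other cluster apart from the neural crest-like one it was at 1.01 CPM or less. Its paralog Prrx2 was spread more evenly, at 7.39 CPM in that cluster and between 6.87 and 10.8 CPM in the 4 clusters drawn mostly from the optic vesicle-like cells. Sox9, which neural progenitors also express, was highest outside the crest in the same Rspo3 cluster, at 20.3 CPM, and in a forebrain-side cluster led by Thbs1 and Dmrta2 (19.3 CPM). It was lower in the pluripotent-like cells (2.28 CPM).

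Snai1 and Ets1 were shared with endoderm-like cells and, at lower levels, with pluripotent-like cells. The endoderm-like cluster of 162 cells had Snai1 at 28.8 CPM, against 19.1 CPM in the neural crest-like cluster, and Ets1 at 12.9 CPM. It held 32.6% of all day 6 UMIs of Snai1, where the neural crest-like cluster held 27.0%. In the main clustering the pluripotent-like cluster of 740 cells held 22.5% of the Snai1 UMIs, at 4.11 CPM. That cluster also held 9.35% of the Ets1 UMIs, at 3.39 CPM, where the endoderm-like cluster held 7.37%. On day 4 the endoderm-like cluster of 51 cells had Snai1 at 21.0 CPM, from 14 UMIs, against 1.73 CPM in the largest cluster. Of the 123 Alx1 UMIs outside the neural crest-like cluster, 75 lay in the optic vesicle-like cluster of the main clustering, at 2.11 CPM. Alx1 reached 7.67 CPM in a cluster of 188 cells led by Prph and with the stress gene Ddit3 among its leading genes, from 14 UMIs. The cells of that cluster had a low mean mitochondrial share, 0.198%, and a median of 8747 UMIs. Twist1 reached 3.20 CPM in the posterior neural tube-like cluster, from 12 UMIs in 11 cells, against 0.528 CPM over all day 6 cells outside the neural crest-like one. Sox10 was met in 12 cells outside the neural crest-like cluster, each with 1 UMI, and Twist1 in 44 cells, of which 43 had 1 UMI. Whether these single UMIs were free RNA was not tested.

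**Figure D5:**
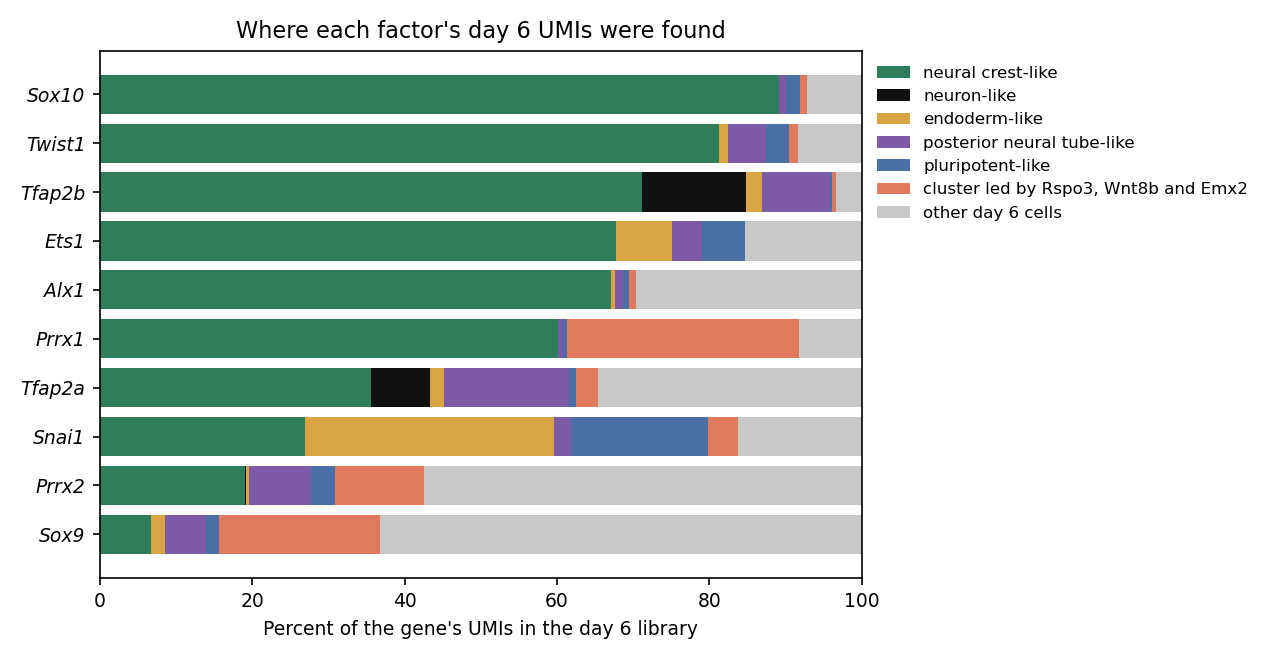
Share of each gene's day 6 UMIs (horizontal axis, percent) by group of cells in the finer clustering, with genes ordered from the largest share in the neural crest-like cluster (green, Sox10 with 89.2%) at the top to the smallest (Sox9 with 6.72%) at the bottom. The black piece is the neuron-like cells (13.6% for Tfap2b), the gold one the endoderm-like cells (32.6% for Snai1) and the orange one the cluster led by Rspo3, Wnt8b and Emx2 (30.4% for Prrx1).

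The rest of the transcriptome of the 162 cells with 3 or more factors was set against the other 6479 day 6 cells, where 5.88% of 14261 genes were higher by size and 11% lower. All 10 factors were higher, which the choice of cells fixes. Among other genes at 50 CPM or more in these cells, the 10 with the highest ratios included Col3a1 (82.7 CPM in these cells and 0.352 CPM in the others, 235-fold), Fam212a (111 CPM in these cells and 0.891 CPM in the others, 124-fold) and Tnfaip6 (58.2 CPM in these cells and 1.09 CPM in the others, 53.3-fold). Serpinf1, the secreted factor PEDF, was 24.2-fold higher, the growth cone gene Gap43 22.8-fold, the matrix gene Hmcn1 17.5-fold, Mef2c 15.7-fold and Irx3 10.2-fold. The most abundant of the 10 was Crabp1, a retinoic acid carrier typical of migrating cranial crest, at 1018 CPM in these cells and 62.9 CPM in the others.

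Of 24 other crest specifiers and border factors, 12 were higher, 3 lower and 9 within (median log2 ratio 0.74), where the median of all genes tested was 0.01. Foxd3, an early crest specifier, had 14 UMIs in the 162 cells and 15 in the 6479 others (31.5-fold, 14.1 to 70.0), and Pax3 was at 38.0 CPM in these cells and 4.90 CPM in the others (7.75-fold). Pax7 was 7.79-fold and Sox8, the third SOXE gene, 6.36-fold higher. The 3 that were lower included the zinc finger gene Zic1 (2.37 CPM in these cells and 8.08 CPM in the others) and Sox6 (5.15 CPM in these cells and 9.52 CPM in the others), both chosen with their values known. Of 13 ectomesenchyme genes tested 10 were higher and 1 lower (median log2 ratio 4.17). Alx4 had 26 UMIs in these cells and 3 in the others (292.5-fold, 89.6 to 1510), Foxc1 47 in these cells and 10 in the others, and Lum 33 in these cells and 5 in the others. The lower gene was Foxd1, named after its value was seen (3.17 CPM in these cells and 8.33 CPM in the others). Of 11 glial and melanocyte genes 7 were higher and 1 lower (median log2 ratio 2.72). Cdh19 was at 12.7 CPM in these cells and 0.106 CPM in the others, and Erbb3 at 15.4 CPM in these cells and 1.52 CPM in the others. The lower gene was Mitf, the pigment cell factor, named after its value was seen (3.96 CPM in these cells and 9.73 CPM in the others).

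Genes of adhesion moved in both directions. Of 19 migration and adhesion genes 9 were higher and 5 lower. The epithelial cadherin Cdh1 had 1 UMI in the 162 cells and 776 in the others (ratio 0.0435, 0.00110 to 0.243), and Epcam was at 4.75 CPM in these cells and 39.7 CPM in the others. The others include cells of the pluripotent-like cluster, which had Epcam among its leading genes. The crest receptor Ngfr was 36.5-fold and the integrin Itga4 20.9-fold higher. Of 18 genes for inducing signals and their targets 7 were higher and 7 lower, with Bmp5 6.43-fold higher and Dkk1 (0.102-fold), Bmp4 (0.167-fold) and Wnt8b (0.199-fold) lower.

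Optic vesicle and pluripotency markers were mostly lower in these cells. Of 6 optic vesicle markers tested 5 were lower and 0 higher, with a summed level of 76.4 CPM in these cells and 669 CPM in the others, and Rax itself was at 9.10 CPM in these cells and 96.8 CPM in the others. Of 10 pluripotency markers 9 were lower and 0 higher (summed 115 CPM in these cells and 669.9 CPM in the others). The 162 cells include 16 outside the neural crest-like cluster, and both sums were lower within that cluster. The pluripotency sum there was 19.3 CPM in cells with a Sox10 UMI and 17.0 CPM in those without. The optic vesicle sum there was 26.8 CPM in cells with a Sox10 UMI and 36.0 CPM in those without. Of 10 endoderm markers 2 were lower and 1 higher, Pdgfra (3.87-fold), a growth factor receptor that crest mesenchyme also uses, and of 9 neuron genes tested 2 were lower and 0 higher. Surface ectoderm and placode genes had 2 of 13 higher and 5 lower, and mesoderm and endothelial genes 1 of 6 higher (Etv2, 2.35-fold) and 1 lower. Posterior neural tube markers had 1 of 13 higher (Pax5, 3.32-fold, from 6 UMIs) and 4 lower. Those 4 include Wnt8b, which was also counted among the inducing signals and is named above with genes of the dorsal forebrain. The 13 Hox genes of the list had 0 UMIs in the 162 cells and 393 UMIs (4.61 CPM) in the others. With 3 counts set as a floor in the 162 cells, their summed level was 3.88-fold lower, and the exact interval of the ratio reached 0.318. Of the 4 Hox genes tested singly, 1 was lower by size and 3 were within the limits. Hox genes are known to be silent in the crest of the forebrain and midbrain. The 8 erythroid genes had 0 UMIs in these cells and 61 in the others.

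The genes most like each factor were sought by Pearson correlation of CPM over the 6 day 6 clusters, among 11592 genes with at least 100 UMIs. This is a description over 6 points that share 1 library and of which the neural crest-like cluster is by far the highest for most factors. Sox10 was closest to Col3a1, Fam212a and Alx1, Twist1 to Fam212a, Col3a1 and Sox10, Alx1 to Sox10, Fam212a and Col3a1, and Prrx1 was close to Serpinf1 and Fam212a, all with r of 0.999 or above. Tfap2b was closest to Crabp1 (0.998), Tfap2a and Ednra, and Tfap2a to Tfap2b (0.998), Crabp1 and Ednra. Among these 6 clusters the 19 neuron-like cells lay in the endoderm-like one. They held 52 of its 60 Tfap2b UMIs and 8 of its 10 Tfap2a UMIs. Ets1 was closest to Itga9, Sdc3 and Dnajc1, and Prrx2 to Has2, Nkd2 and Grrp1. Snai1 was closest to Pxdc1, Clmp and Limch1 (0.989 to 0.994) and Sox9 to Slitrk2, Sobp and Ccnd3 (0.983 to 0.997).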

How the data were processed

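Per the labels, both libraries were 10x Genomics Chromium libraries of the 3′ v2 chemistry. The authors deposited unnormalized UMI counts per gene for each barcode, aligned to mm10. Cell Ranger 2.0.1 and Seurat 2.3.4 are listed in the notes on processing, and later versions of both in the study's methods. The 7446 day 6 and 9114 day 4 barcodes were filtered by the study's stated limits (500 to 5000 genes, 500 to 26000 UMIs, at most 10% mitochondrial, at least 20% ribosomal protein and at most 0.5% haemoglobin counts), which kept 89.2% and 89.4% of them. Scrublet, as run by scanpy 1.11.5, marked 0 day 6 cells and 1 day 4 cell. It has not worked at so few calls, so doublets were in effect left in. No correction for free RNA was made.

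CPM were computed from the summed UMIs of each group. They carry exact Poisson, ratios exact conditional binomial and shares Clopper-Pearson 95% intervals (scipy 1.17.1), all for counting error alone. For a count of 0 the share allowed is 3 counts of the total, in place of the upper end of that interval. No p-value was computed, since each day had 1 library. Genes with at least 20 UMIs over both groups were tested for size, and a gene at 0 in one group was set to 3 counts there. Thinning drew 5000 UMIs per cell and left out 0 day 6 and 182 day 4 cells.

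Clusters were made within each library from 2000 variable genes less the 10 factors, with 30 components, 20 neighbours and Leiden resolution 0.2. Resolution 1.0 gave the finer clusters. A name needed 3 markers at 2-fold or more in at least 10% of the cells, 1 of them among the 10 leading genes. Names were rebuilt here and may differ from those of the study. Named are the 10 factors, the 10 genes with the highest ratio at 50 CPM or more, up to 4 genes per list with the largest absolute log2 ratio and the 3 genes most like each factor. Genes named beyond this are marked so in the text. A few genes that this rule takes in are not reported here. Cluster genes only describe clusters. The factors, the 15 lists and the comparisons were chosen with earlier results of these data known. Alternatives were other cell filters, depths, totals, thresholds and clusterings. The split by Sox10 was not made at other thresholds than 1 UMI, apart from thinning.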

Additional observations from a re-analysis of the deposited data

How the results depend on the processing

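The count of factors that were higher on day 6 was 7 under 6 alternatives, and a minimum of 100 UMIs left out none of the 10 genes and so repeated the main values. Of 60 single ratios recomputed, 54 stayed inside the main interval, 6 left it (Sox9 3 times and Twist1 3 times) and 0 turned round. Twist1 ranged from 2.30 to 3.20 and Tfap2b from 32.1 to 43.6. The share of day 6 cells with 3 or more factors depended on the threshold, at 5.63% with 2 or more factors, 1.81% with 4 or more, 1.01% when detection needed 2 UMIs and 1.11% after thinning to 5000 UMIs, against 2.44%. The share of Sox10 cells with at least 2 other factors was 54.5% after thinning (36.4 to 71.9%, 33 cells) and 44.0% when detection needed 2 UMIs (25 cells), against 77.1%. The share of the factors' day 6 UMIs outside was 62.8% without an upper limit on UMIs or genes, 63.0% with every barcode, 75.7% after thinning, 45.2% with a threshold of 2 factors and 65.5% with 4, against 59.9%. Thinning and stricter thresholds lower detection by construction. The neural crest-like cluster had the same 171 cells under all 4 other clusterings. The count of genes higher by size in the cells with 3 or more factors was 838, and 833 to 899 under 3 alternatives chosen after seeing the data. Thinning of the split by Sox10 was also chosen then. Levels under 1 CPM rest on under 100 UMIs per library, and 1 library per day limits every statement to these libraries. No paired analysis was possible because each day had 1 library and no test was made.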

Other observations

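Barcodes above the limit on UMIs or genes, left out of the report, also held cells with several of the factors. On day 6, 24 of 791 such barcodes (3.03%, 1.95 to 4.48%) had 3 or more of the 10 genes, and on day 4, 19 of 960 did (1.98%, 1.20 to 3.07%). Their median depth was 33011 UMIs on day 6 and 33586 UMIs on day 4, and the intervals of the 2 shares overlap. The larger share on day 4 than among its filtered cells (0.172%) stands beside that depth, and its part was not tested.

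Surface ectoderm and placode genes were of both kinds in the cells with 3 or more factors. Gata2, a factor of non-neural ectoderm, had 4 UMIs in these cells and 25 in the other day 6 cells (5.40-fold, 1.37 to 15.6), whereas the keratin Krt18 was at 8.71 CPM in these cells and 75.8 CPM in the others. Eya1 was at 16.6 CPM in these cells and 4.32 CPM in the others, and within the neural crest-like cluster at 12.9 CPM in cells with Sox10 and 20.8 CPM in those without (ratio 0.619, 0.291 to 1.23). The vascular receptor Kdr was at 1.19 CPM in these cells and 4.67 CPM in the others (0.254-fold, 0.0522 to 0.749), and Etv2, known as an endothelial factor, was at 12.3 CPM in these cells and 5.22 CPM in the others.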
